A study of Homo sapiens with 6 samples.

Results

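TNFSF11 encodes RANKL, a cytokine of the tumour necrosis factor family. Its locus was taken as the 17 consecutive windows of 10 kb that run from 43030001 to 43200000 on chromosome 13 in hg19, of 303641 windows along the genome. The windows were fixed by position. They comprise 10 upstream windows, which the selection counts as the region of upstream enhancers, 1 promoter window (43130001 to 43140000) and 6 windows after it. The locus was selected on the read counts of these same 6 libraries, with earlier results known, so its values are given as a description, without a test. The 50 windows on each side, 100 in all, served as the reference. The table carries no gene names and no annotation of its build was at hand, so the place of the gene within the windows rests on the selection rule.

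RANKL binds the receptor RANK, and the decoy receptor osteoprotegerin competes for it. In bone it drives the formation of osteoclasts. In the mouse mammary gland, progesterone acts on luminal cells that carry its receptor, and the RANKL they make stimulates neighbouring cells that lack the receptor, which is why RANKL is called a paracrine mediator of progestins. The mouse gene is controlled in bone and immune cells by several enhancers far upstream of its start.

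T47D-MTVL cells derive from T47D, a human breast cancer line that expresses progesterone receptor, and carry an integrated reporter driven by a viral, progestin-responsive promoter. All cells had been kept in charcoal-stripped serum and then in serum-free medium. They were fixed after 0 min (no hormone), 5 min or 30 min with R5020, a synthetic progestin, at 10 nM. Chromatin was immunoprecipitated with an antibody against the kinase CDK2 or against PARP1, the enzyme that builds ADP-ribose chains on proteins, to follow how CDK2 activates PARP1 in the progestin response. There was 1 library for each antibody and time and hence no replicate error, and intervals cover counting error only.

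RefSeq lists 2 starts for TNFSF11, both on the plus strand and 11416 bases apart on GRCh38.p14. No single window of 10 kb can therefore hold both starts. The 250 bases before each start are shown because the promoter window was the locus window that passed 2-fold for PARP1, as given below. Whether either stretch lies in that window was not checked, because the counts are on hg19 and these sequences on GRCh38.p14, at chr13:42562486-42562735 for the upstream start and chr13:42573902-42574151 for the downstream start. Capitals mark the matches to the motifs searched.
Upstream start: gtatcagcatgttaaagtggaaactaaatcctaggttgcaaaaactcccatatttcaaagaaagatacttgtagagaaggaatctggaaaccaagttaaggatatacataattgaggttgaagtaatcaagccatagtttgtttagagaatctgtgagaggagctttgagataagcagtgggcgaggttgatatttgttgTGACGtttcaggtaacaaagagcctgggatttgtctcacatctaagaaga
Downstream start: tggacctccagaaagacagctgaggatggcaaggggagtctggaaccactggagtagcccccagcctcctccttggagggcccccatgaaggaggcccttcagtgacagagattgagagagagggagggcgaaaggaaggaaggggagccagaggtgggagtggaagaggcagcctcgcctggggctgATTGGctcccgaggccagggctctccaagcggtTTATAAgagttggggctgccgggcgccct

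The stretch before the upstream start is poor in G and C, with 37.6% against a median of 58% over 35116 RefSeq promoters cut to the same length, and has 2 CpG dinucleotides. The stretch before the downstream start has 62.8% and 6 CpG, against a median of 11 CpG. Motifs were searched on both strands. TGTTCT, a half-site bound by the progesterone receptor, is in neither stretch and in 12.4% of all promoters. GNACANNNTGTNC, a palindromic element of steroid receptors, is in neither and in 0.327% of all. The cyclic AMP half-site TGACG is present 50 bases before the upstream start, and 21.2% of promoters hold it. Before the downstream start there is a CCAAT box, read as ATTGG on the plus strand, which 32% of promoters hold. There is also a TATA box, TATAA, which 18.9% hold and which overlaps its own match on the other strand. The GC box GGGCGG is in neither stretch and in 42.6% of promoters. These are matches of letters, not binding sites.

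Library totals ran from 40097131 reads for CDK2 at 30 min up to 63448449 for PARP1 at 30 min. CDK2 was spread less evenly than PARP1. Among the 278395 windows with a mean of at least 10 counts, 14, 3986 and 588 were empty in the CDK2 libraries of 0, 5 and 30 min, and 4, 14 and 4 in those of PARP1. No window of the TNFSF11 locus was at 0 in any library, and all 17 passed the minimum.

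The TNFSF11 locus was not rich in reads in any library. The median locus window held between 0.627 times (CDK2 at 5 min) and 0.870 times (PARP1 at 30 min) the median of the 278395 windows named above. The median reference window held between 0.800 and 0.904 times that median. The locus summed to 1899, 2046 and 1910 CDK2 reads at 0, 5 and 30 min and to 2429, 2803 and 2970 PARP1 reads. An input library was not analysed here, so these levels are shares of a library and not enrichments.

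PARP1 gave 61, 125 and 183 reads in the promoter window at 0, 5 and 30 min. Scaled to a library of 1000000 reads (CPM) this is 1.09, 2.14 and 2.88 CPM. The Poisson 95% intervals were 0.837 to 1.41, then 1.78 to 2.55, then 2.48 to 3.33 CPM, and the first overlapped neither of the others. At 0 min it was the lowest of the 17 locus windows and lay below all 100 reference windows, whose counts began at 71. Of all windows that passed the minimum, 3.14% were as low in that library. At 5 min 16 reference windows were lower, and at 30 min 47 were. Relative to the reference median its level was 0.384 times at 0 min, 0.753 times at 5 min and 0.973 times at 30 min. The window was thus low in PARP1 before hormone and near its surroundings at 30 min. At no time did it stand above them.

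The CDK2 libraries of 0, 5 and 30 min held 95, 35 and 203 reads in the same window, or 2.11, 0.606 and 5.06 CPM. The Poisson 95% intervals were 1.70 to 2.57, then 0.422 to 0.842, then 4.39 to 5.81 CPM. It held 0.769, 0.237 and 1.84 times the reference median at 0, 5 and 30 min. At 30 min it was the highest CDK2 window of the locus, and 5 of 100 reference windows were higher. Of all windows that passed the minimum, however, 20.9% were as high in that library. At 5 min the promoter window was the fourth lowest of the locus, and 3 reference windows were lower. In that library 5.86% of all windows that passed the minimum were as low.

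**Figure D1:**
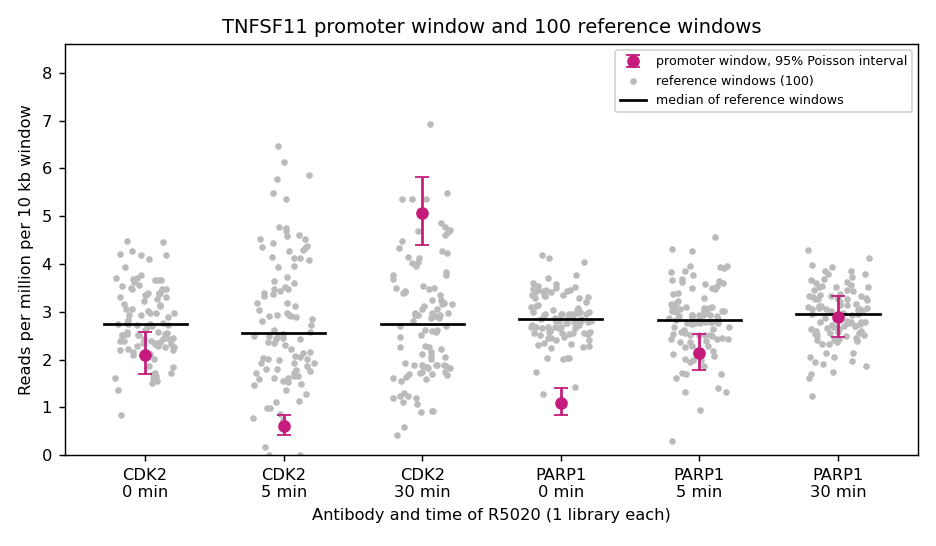
Scaled reads (CPM) in the TNFSF11 promoter window (large points with Poisson 95% intervals), in the 100 reference windows (small points) and their median (bars), for each antibody and time with 1 library each. PARP1 lies below every reference window at 0 min and near their median at 30 min. CDK2 is low among these windows at 5 min and among the highest of them at 30 min.

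At 30 min against 0 min, PARP1 in the promoter window had a depth-scaled ratio of 2.64 (exact binomial 95% interval 1.96 to 3.58). A ratio of at least 2 or at most 0.5 is called past 2-fold below. None of the 100 reference windows had a ratio as high, the highest being 1.65, and 0.0902% of all compared windows did. It was the 1 locus window of 17 that was higher by this limit, and 0 were lower. Of all compared windows 0.452% were higher and 0.635% lower. The median ratio of the 17 windows was 0.977, against 0.996 over all compared windows. The other locus windows ran from 0.701, at 43160001 to 43170000, up to 1.66.

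At 5 min against 0 min the PARP1 ratio in the promoter window was 1.95 (1.43 to 2.70), just inside the limit, so 0 of the 17 windows were past 2-fold. Of all compared windows 0.93% were higher and 1.79% lower. Scaling by the reference windows in place of library totals put it past the limit, at 2.01, and summing it with its neighbours gave 1.09. With library totals no reference window had as high a ratio, but the highest was nearly equal, at 1.949 against 1.954. Of all compared windows 1.12% were as high. The lowest locus window was again 43160001 to 43170000, with 145 reads at 5 min against 232 at 0 min and a ratio of 0.596. Directly between 30 and 5 min the promoter window had 183 against 125 reads, a ratio of 1.35 (1.07 to 1.71), and 18 reference windows were as high. In that comparison 0 locus windows were past 2-fold, against 1.36% higher and 0.837% lower of all compared windows. Both ratios to 0 min share the 0 min library, in which the promoter window had its low count of 61, and what that count contributes to them was not tested.

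CDK2 at 30 min had a ratio to 0 min of 2.40 (1.88 to 3.10) in the promoter window. Of the reference windows 3 were as high, and 2.35% of all compared windows. At the locus 3 windows were higher and 2 lower past 2-fold, against 5.5% and 11.6% of all compared windows. The other higher ones were 43090001 to 43100000, with 147 reads at 30 min against 64 at 0 min (ratio 2.58, 1.91 to 3.52), and 43180001 to 43190000, with 194 against 107 (2.04, 1.60 to 2.61). The lower ones were the next windows after the promoter window. The window 43140001 to 43150000 had 46 reads against 107 (0.484, 0.335 to 0.689), and 43150001 to 43160000 had 50 against 169 (0.333, 0.238 to 0.459). Higher and lower windows lay side by side, and the median ratio of the 17 was 0.996, against 0.962 over all compared windows.

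At 5 min CDK2 in the promoter window was at 0.288 times its 0 min level (0.189 to 0.428). Of the reference windows 4 were as low, and 6.63% of all compared windows. At the locus 5 windows were lower and 1 higher, against 16.2% and 6.22% of all compared windows. The promoter window and the next 2 formed a run of low windows. In 43140001 to 43150000 there were 13 reads at 5 min against 107 at 0 min, a ratio of 0.0948 (0.0489 to 0.169), the lowest of the locus. In 43150001 to 43160000 there were 47 against 169, a ratio of 0.217 (0.154 to 0.302). PARP1 was not low there at 5 min, with 160 reads against 185 at 0 min in the first of these windows and 206 against 215 in the other. The other lower windows were upstream, 43030001 to 43040000 with 16 against 54 reads (0.231) and 43080001 to 43090000 with 34 against 60 (0.442). The higher one was 43070001 to 43080000, with 234 against 78 reads (2.34, 1.81 to 3.07), where CDK2 at 30 min had 59 reads.

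**Figure D2:**
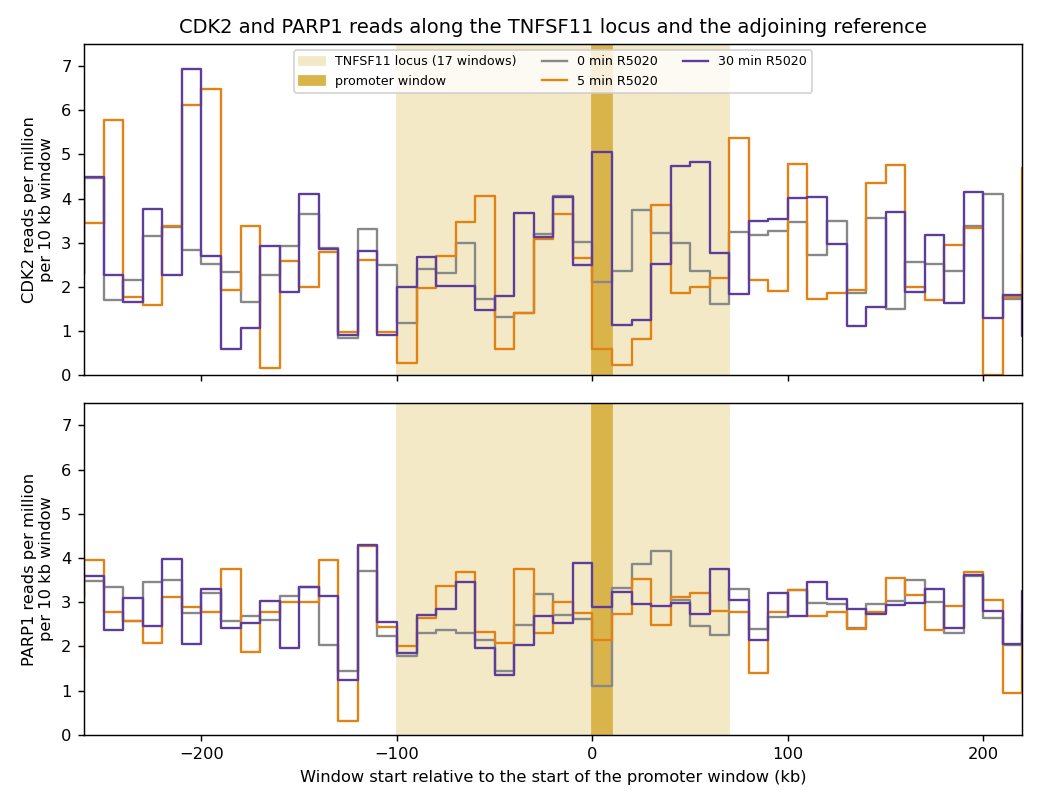
Scaled reads (CPM) in each 10 kb window, for CDK2 (top) and PARP1 (bottom), against the distance of the window from the promoter window, with 1 line per time and the locus shaded. CDK2 at 5 and 30 min jumps between neighbouring windows inside and outside the locus, while PARP1 is flatter, with single low windows such as the promoter window at 0 min and others outside the locus at 5 min.

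The spread between reference windows shows how far single windows differ here without regard to TNFSF11. The SD of their log2 ratio was 0.843 for CDK2 at 5 over 0 min, over the 98 windows with reads in both libraries, and 0.740 at 30 over 0 min. For PARP1 it was 0.453 and 0.294. Counting error alone gives between 0.159 and 0.204 in these comparisons, so neighbouring windows differed by more than counting error, and most so in CDK2. On this scale the promoter window lay at -1.80 and 1.27 for CDK2 at 5 and 30 min and at 0.97 and 1.40 for PARP1. For PARP1 at 5 and 30 min it lay above all 100 reference windows, but at 5 min only by 0.966 against 0.963. At 30 min the locus window 43190001 to 43200000 also lay above all of them, at 0.732 against at most 0.722. For CDK2 its ratio was within the range of the reference windows at both times.

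**Figure D3:**
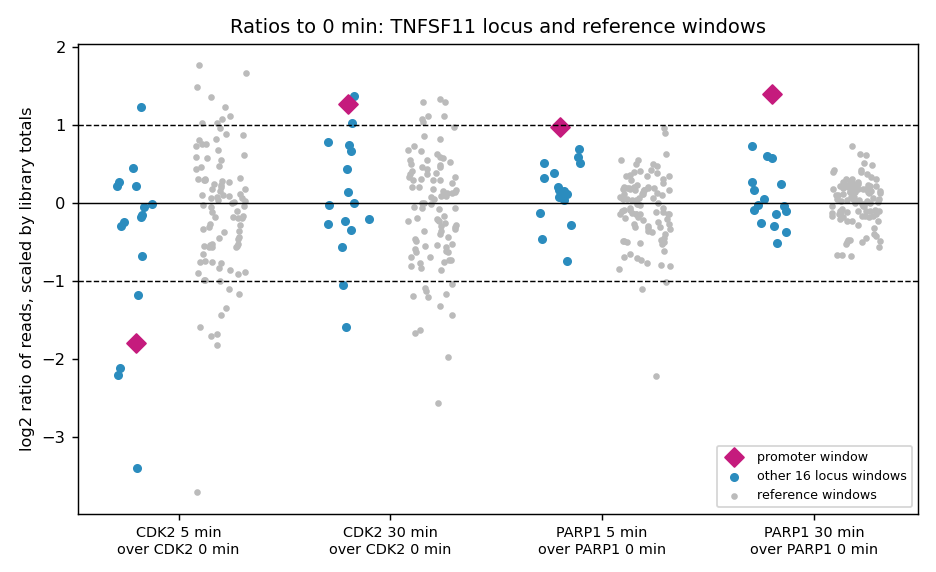
Log2 ratio to 0 min of the promoter window (diamonds), the other 16 locus windows and the reference windows, for each antibody and time, with dashed lines at 2-fold. The 2 reference windows without reads in CDK2 at 5 min are not drawn. The promoter window stands above every reference window for PARP1 at both times, at 5 min by a very small margin.

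The promoter window was past 2-fold higher at 30 min for both antibodies. No other locus window and 0 of the 100 reference windows were. PARP1 alone fixed these counts, because none of those windows was past 2-fold higher for PARP1. Of all compared windows 0.0779% were higher for both, against 0.452% for PARP1 and 5.5% for CDK2. The antibodies share no library. Both ratios were picked with their values known, so this overlap is a description. It rests on the single window: summed with its neighbour on each side, the ratio at 30 over 0 min was 1.16 for CDK2 and 1.42 for PARP1.

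Between 30 and 5 min CDK2 in the promoter window had 203 against 35 reads, a ratio of 8.36 (5.82 to 12.3), which was 2.50 when summed with its neighbours. Of the reference windows 3 were as high. At the locus 7 windows were higher and 1 was lower, against 18.5% and 15.2% of all compared windows. They included 43030001 to 43040000, with 80 reads at 30 min against 16 at 5 min, and 43140001 to 43150000, with 46 against 13. In both of these CDK2 at 5 min had the low counts given above, as in 43080001 to 43090000, with 72 against 34 reads. The remaining ones were not past 2-fold lower at 5 over 0 min. The window 43090001 to 43100000 had 2.62 at 30 over 5 min and 0.988 at 5 over 0 min. For 43170001 to 43180000 these were 2.54 and 0.624, and for 43180001 to 43190000 2.41 and 0.846.

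CDK2 was then set against PARP1 at each time, which shows where reads lay and not which protein was more abundant. In the promoter window the ratio of CDK2 to PARP1 was 1.92 at 0 min (1.38 to 2.70), with 95 against 61 reads, and no reference window was as high. At 0 min both antibodies were below the reference median there, CDK2 at 0.769 times and PARP1 at 0.384 times. The ratio was 0.283 at 5 min (0.189 to 0.415), with 35 against 125 reads, and 5 reference windows were as low. At 30 min the ratio was 1.76 (1.43 to 2.16), with 203 against 183 reads, and 5 reference windows were as high. Summed with its neighbours, the window had 1.07, 0.456 and 0.870 at 0, 5 and 30 min, so the direction at 30 min turned. At 0 min 0 of the 17 windows were past 2-fold, against 0.51% higher and 0.824% lower of all compared windows. At 5 min 6 were lower and 0 higher, against 17.1% and 8.03%. At 30 min 2 were lower and 0 higher, against 10.4% and 3.87%. Both were the windows just after the promoter window, 43140001 to 43150000 (0.355) and 43150001 to 43160000 (0.420).

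**Figure D4:**
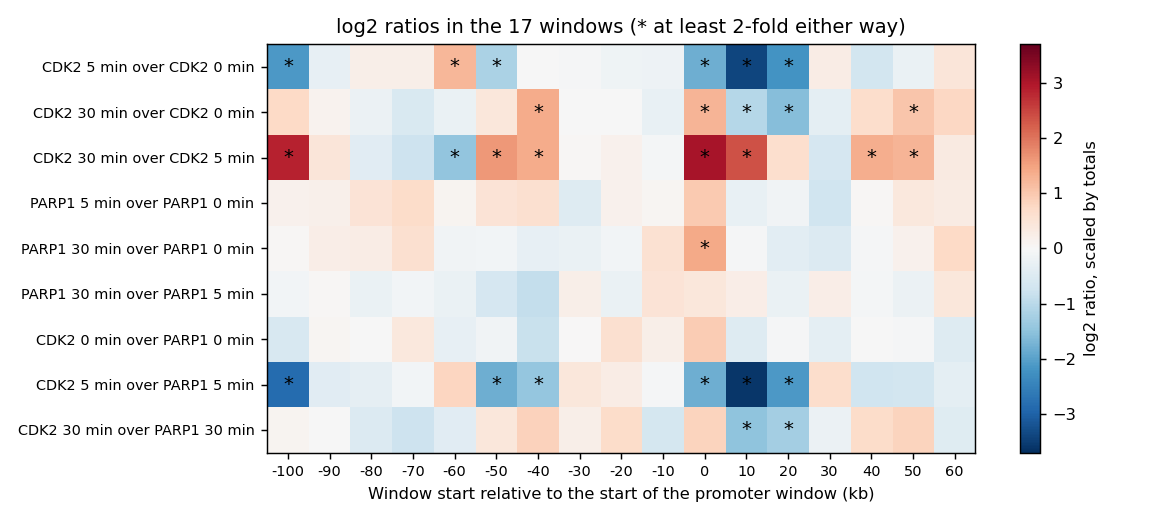
Log2 ratios scaled by library totals for the 9 comparisons (rows) in the 17 windows (columns, by distance from the promoter window), with a star at 2-fold or more either way. Stars are dense for CDK2 at 5 min and, among the comparisons within PARP1, there is 1, in the promoter window at 30 over 0 min.

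The sums over the locus differed less between libraries than the promoter window did. Relative to the reference, the 17 windows held 1.06 times as many PARP1 reads at 30 min as at 0 min (95% interval 0.9995 to 1.12) and 1.13 times as many at 5 min (1.07 to 1.20). Without the promoter window these became 1.02 (0.961 to 1.08) and 1.11 (1.05 to 1.18). At 5 min the upstream windows had 1.23 (1.14 to 1.33) and the windows after the promoter window 0.964 (0.883 to 1.05). All but 1 of the 10 upstream windows had a PARP1 ratio above 1 at 5 min, as did 48 of the 100 reference windows and 48.6% of all compared windows. The highest of the upstream ratios was 1.61 at 43060001 to 43070000, which had 216 reads at 5 min against 128 at 0 min. For CDK2 the locus held 0.840 times its 0 min reads at 5 min (0.786 to 0.898), relative to the reference. At 30 min it held 1.13 times (1.06 to 1.21), and directly between 30 and 5 min 1.35 times (1.26 to 1.44). Without the promoter window these were 0.869 (0.812 to 0.930), 1.06 (0.991 to 1.14) and 1.22 (1.14 to 1.31). At 5 min the upstream windows were at 1.01 (0.925 to 1.09) and those after the promoter window at 0.671 (0.602 to 0.748). These intervals treat reads as independent and are too narrow by the spread between windows given above.

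Along the locus the rank order of windows was most alike between the antibodies before hormone. The 17 windows are neighbours, and their base composition and mappability were not measured. Across these windows Spearman's rho between CDK2 and PARP1 was 0.759 at 0 min, 0.181 at 5 min and 0.0196 at 30 min. Over the 100 reference windows it was 0.359, 0.0374 and 0.127, and over all compared windows 0.855, 0.54 and 0.671. Within PARP1 it was 0.384 at the locus between 5 and 0 min and 0.365 between 30 and 0 min. Within CDK2 it was 0.463 and 0.123. Over the reference windows these values were 0.175 and 0.414 for PARP1 and 0.122 and 0.195 for CDK2. Over all compared windows they were 0.804 and 0.856 for PARP1 and 0.59 and 0.609 for CDK2.

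The reference windows whose 4 ratios to 0 min were most like those of the promoter window, by the mean absolute difference of the log2 ratios, were 42530001 to 42540000 (0.54), 43520001 to 43530000 (0.54) and 43490001 to 43500000 (0.76), of 98 that could be compared. Each was lower in CDK2 at 5 min and higher in the other libraries with hormone than at 0 min. Their PARP1 counts at 30 min were 240, 226 and 218, against 138, 142 and 152 at 0 min. They therefore did not have the low PARP1 count at 0 min that the promoter window had. In the RefSeq gene order of GRCh38.p14, the protein-coding neighbours of TNFSF11 are AKAP11 before it and LOC124903164 and then FAM216B after it. Which of them the reference windows cover was not determined.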

How the data were processed

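Read counts per 10 kb window were deposited by the authors as whole numbers for 6 ChIP-seq libraries, not normalized. Alignment was to hg19 with Bowtie 1.0.0, per the submitters' processing notes. The treatment of duplicates and of reads with several matches is not given in these sources, and either could change the counts of single windows. Windows with a mean of at least 10 counts were compared. Libraries were scaled by their totals, and ratios carry exact binomial (Clopper-Pearson) 95% intervals conditional on both counts. The ratio of sums to the reference has a normal 95% interval on the log scale. With 1 library per antibody and time no p-value is given. Windows named are the promoter window, those past 2-fold against 0 min, the extremes, and the 3 reference windows most like the promoter window. The locus and the rules were chosen with earlier results of these data known. The count and interval steps were tested on simulated data with Poisson counting error only. Such data lack the further spread between windows, so they cannot show whether the intervals cover it. Alternatives used scaling factors from edgeR 4.0.16 and DESeq2 1.42.0, which served for nothing else. Tables were made with pandas 2.3.3 in Python 3.11.15, with scipy 1.17.1 for the intervals and matplotlib 3.10.9 for the figures. Genes of the RANK pathway elsewhere in the genome were not analysed here, for lack of an annotation of the build. Positions are 1-based.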

Additional observations from a re-analysis of the deposited data

Results flagged for a closer look

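At 5 min against 0 min the antibodies moved in opposite directions in the promoter window and in the sum over the TNFSF11 locus. In the promoter window CDK2 had a ratio of 0.288 and PARP1 one of 1.95, and over the 17 windows together CDK2 had 0.841 and PARP1 1.10. Both pairs were flagged because their ratios lay on opposite sides of 1 with counting intervals that excluded 1, so this is the selection and not a further result. These intervals are too narrow by the spread between windows given above. The sums over the 16 locus windows without the promoter window also lay on opposite sides of 1. They were 0.870 for CDK2 (0.816 to 0.928) and 1.08 for PARP1 (1.02 to 1.14). Neither the upstream windows nor the windows after the promoter window showed opposite directions with both intervals excluding 1. The upstream windows had 1.01 for CDK2 (0.928 to 1.09) and 1.19 for PARP1 (1.11 to 1.28). The windows after the promoter window were below 1 for both, with 0.672 for CDK2 (0.604 to 0.749) and 0.936 for PARP1 (0.859 to 1.02). The difference between the antibodies was not tested, since each has 1 library per time. CDK2 at 5 min is the library with the most empty windows, 3986 of 278395, against 14 in PARP1 at 5 min, and its part in the difference was not tested. At 5 min the promoter window held 0.237 times the reference median in CDK2 and 0.753 times in PARP1.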

How the results depend on the processing

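No paired analysis was possible because each antibody and time has 1 library and the labels carry no replicate numbers. Scaling by TMM factors, by DESeq2 size factors or by the reference windows kept each promoter window ratio within its counting interval. It kept the count of locus windows past 2-fold within 1.5 times, except that scaling by the reference gave 1 window, the promoter window, for PARP1 at 5 over 0 min in place of 0. The largest shift of a scaling was 0.0679 on the log2 scale. Count minimums of 0 or 50 changed no count.

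The width of the promoter region changed most. Summed with its neighbours, the promoter window had CDK2 ratios of 0.464 at 5 over 0 min, 1.16 at 30 over 0 min and 2.50 at 30 over 5 min, and PARP1 ratios of 1.09 at 5 over 0 min and 1.42 at 30 over 0 min. CDK2 over PARP1 became 1.07, 0.456 and 0.870 at 0, 5 and 30 min, so the direction at 30 min turned. The higher level at 30 min is thus past 2-fold in the single window for both antibodies and not over 30 kb.

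With a limit of 1.5-fold the locus windows past it were 8 for CDK2 at 30 over 0 min, where 40.3% of all compared windows passed it. For PARP1 they were 4 at 5 over 0 min (16.4% of all), 3 at 30 over 0 min (9.63%) and 2 at 30 over 5 min (13.5%). For CDK2 over PARP1 they were 2, 10 and 9 at 0, 5 and 30 min (10.1%, 48.4% and 36.3%). Relative to the reference, the median over windows gave 1.02 in place of 1.13 for CDK2 at 30 over 0 min, 0.946 in place of 1.06 for PARP1 at 30 over 0 min and 0.875 in place of 0.935 for PARP1 at 30 over 5 min. A reference of 250 kb on each side gave 1.498 in place of 1.35 for CDK2 at 30 over 5 min and 0.665 in place of 0.735 for CDK2 over PARP1 at 5 min. Leaving out the promoter window, an alternative added after the counts had been seen, gave 1.22 for CDK2 at 30 over 5 min. The cause of these differences was not tested. The promoter window held 35 to 203 reads per library, which sets the width of its counting intervals.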
